A study of Homo sapiens with 12 samples.

Results

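The genes described here carry out glycolysis or respond to low oxygen. They were taken from a list of 40 gene symbols, 25 for glucose transporters, glycolytic enzymes and their regulators and 15 for hypoxia response genes. Where several probe sets were annotated to a gene alone, the brightest of them on average across the 12 arrays stood for it. By this rule 38 of the 40 were measured, 24 glycolysis genes and 14 hypoxia response genes, of 19775 genes tested on the arrays. SLC16A3 and CA9 had no such probe set and are named only.

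Glycolysis takes up glucose through membrane transporters, traps it by phosphorylation and splits it to pyruvate, which lactate dehydrogenase can turn into lactate. The hypoxia response is run by the transcription factor HIF, whose alpha subunits (HIF1A or EPAS1) are marked for destruction by oxygen-dependent prolyl hydroxylases (the EGLN enzymes). When oxygen is low, the stabilised alpha subunit pairs with ARNT and activates genes for angiogenesis, mitochondrial turnover and many glycolytic steps. Both are well studied in macrophages.

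Total RNA came from U937 cells, a human myelomonocytic line in long use, transduced with an empty vector or with a vector for EVI1, a zinc finger transcription factor. Both populations grew in serum-containing medium and received either ethanol, the solvent, or 50 ng/ml of the phorbol ester TPA, an activator of protein kinase C that drives U937 toward a macrophage-like state, for 24 h. The 4 groups were thus empty vector cells in ethanol, empty vector cells in TPA, EVI1-labelled cells in ethanol and EVI1-labelled cells in TPA, with 3 arrays each. All groups carry a vector, no untransduced cells were analysed here, and neither the vector's promoter nor whether the populations are clones is stated in the sources used. The design calls the 3 samples biological replicates, without saying whether they come from separate transductions, so p-values measure the spread between these samples, which may be partly technical.

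Values are log2 expression on the scale of robust multi-array averaging (RMA), with 1 unit being a 2-fold step, and replicate values are given in the order 1 to 3. A difference is TPA minus ethanol, or EVI1-labelled minus empty vector, with the standard error (SE) of a limma fit over all 12 arrays. A gene was called where its p-value, adjusted over all genes, was at most 0.05. "Rose", "fell", "higher" and "lower" below refer to called differences unless a value is given as not called. The lowest of the array medians, 5.07, served as the background level, and a group whose mean lies under it cannot be told from background. Levels of different genes cannot be set against each other on this scale, and in RNA from bulk cultures fewer cells expressing a gene and less RNA per cell cannot be told apart.

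Arrays of a group correlated at 0.991 to 0.997 over all genes. All 11 measured U937 myelomonocytic markers had group means above the background level in every group. The 5 probe sets of MECOM, the gene that encodes EVI1, lay between 2.59 and 3.32 on every array and none differed between the populations (smallest adjusted p = 0.118 over probe sets), so expression of EVI1 is not shown by these arrays, and the sources used do not say whether the probe sets cover the vector's transcript. For that reason the population is called EVI1-labelled throughout. Replicate 3 of the EVI1-labelled cells in TPA had the lowest weight when arrays were weighted by their fit, 0.404 against 0.732 to 1.90 for the others, and calls of the 38 genes that turn on it are given with and without it. The 3′ minus 5′ signal gap of the ACTB control probe sets was 1.85 ± 0.13 in ethanol and 1.31 ± 0.17 in TPA (SD, n = 6, exact permutation test, two-sided, p = 0.00216), and that of GAPDH was 0.57 ± 0.145 and 0.398 ± 0.113 (p = 0.0476, the same exact test). This measure of RNA integrity moved with the treatment, and its part in the TPA differences below was not tested.

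TPA changed most of the glycolysis genes, in both directions. In empty vector cells 6 of 24 rose and 10 fell, beside 20.7% of all genes higher and 22.5% lower (43.2% called). EVI1-labelled cells had 5 higher and 9 lower, beside 19.4% and 20.6% of all genes (40.0% called). The genes that rose by 1 or more on the log2 scale were the same 3 in each population: the glucose transporter SLC2A3, the hexokinase HK3 and the regulator PFKFB4, beside 7.42% and 6.71% of all genes higher by that size. HK2 fell by more than 1 in EVI1-labelled cells and by less in empty vector cells, a difference in response that was not called (-0.37, adjusted p = 0.555, and 0.13 with the mean over its probe sets), and 8.04% and 6.8% of all genes fell by 1 or more. Over the 24 genes the median difference was -0.11 with the empty vector and -0.06 with the EVI1 label, beside 0.02 and 0.00 over all genes. Of the 24 genes, 5 rose and 9 fell in both populations, and no gene was called in opposite directions. The matching share over all genes is not given here, so this agreement is not read as particular to these genes.

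**Figure D1:**
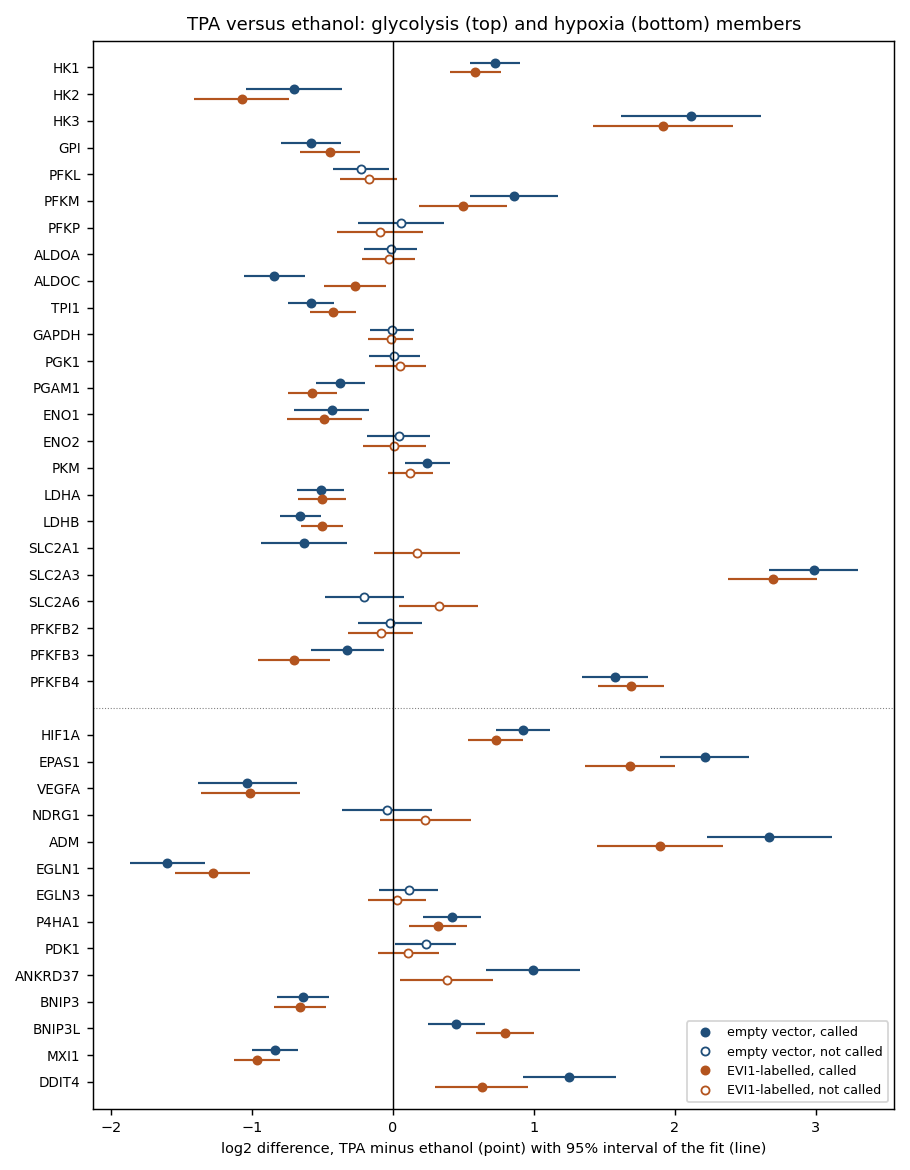
Log2 difference of TPA minus ethanol for the 38 measured genes, glycolysis above and hypoxia response below, in empty vector cells (blue) and EVI1-labelled cells (orange). Points are fitted differences, lines are 95% intervals of the fit and filled points are called, and SLC2A3, HK3, PFKFB4, EPAS1 and ADM lie farthest to the right while EGLN1 lies farthest to the left.

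The glucose transporters moved in different directions. SLC2A3 (GLUT3, a high-affinity transporter, probe set 202499_s_at) stood at 6.82, 6.43 and 6.68 in empty vector cells in ethanol and at 9.69, 9.35 and 9.84 in TPA. In EVI1-labelled cells its values were 6.93, 6.57 and 7.05 in ethanol and 9.62, 9.48 and 9.53 in TPA. Every TPA array was above every ethanol array, and the populations overlapped within each treatment. SLC2A3 rose by 2.98 (SE 0.15, 7.91-fold, adjusted p = 8.23e-10) and 2.69 (SE 0.15, 6.47-fold, adjusted p = 2.97e-09). Its other 2 probe sets rose by 2.53 to 2.88.

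SLC2A1 (GLUT1, the widespread basal transporter, probe set 201250_s_at) had values of 7.37, 7.37 and 7.61 in empty vector cells in ethanol and 6.94, 6.87 and 6.65 in TPA. The EVI1-labelled cells had 7.62, 7.49 and 7.69 in ethanol and 8.0, 7.91 and 7.40 in TPA. The empty vector arrays did not overlap between treatments, while replicate 3 of the EVI1-labelled cells in TPA lay below all 3 of their ethanol arrays and the other two lay above. SLC2A1 fell by 0.63 in empty vector cells (SE 0.14, adjusted p = 0.00201) and differed by 0.17 in EVI1-labelled cells (SE 0.14, 95% interval -0.14 to 0.48, adjusted p = 0.412). The fall in empty vector cells was not called when the gene's 2 probe sets were averaged (adjusted p = 0.0507), the second set having a mean of 4.30, below the background level. Without replicate 3 of the EVI1-labelled cells in TPA, SLC2A1 was called in the EVI1-labelled cells (adjusted p = 0.0219). SLC2A6, another member of the family, differed by -0.20 and 0.32, neither called, and was called in EVI1-labelled cells when that same array was left out (adjusted p = 0.00146).

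The hexokinases, which phosphorylate glucose as it enters the cell, split by isoform. HK3 (205936_s_at), the isoform typical of myeloid cells, had values of 6.62, 6.56 and 6.19 in empty vector cells in ethanol and 8.42, 9.20 and 8.09 in TPA. EVI1-labelled cells gave 6.30, 6.02 and 6.29 in ethanol and 7.89, 8.04 and 8.43 in TPA. All TPA arrays were above all ethanol arrays. The rise was 2.11 (SE 0.23, 4.33-fold, adjusted p = 2.67e-06) and 1.92 (SE 0.23, 3.78-fold, adjusted p = 8.1e-06). HK1, the broadly expressed isoform, rose by 0.72 and 0.58.

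HK2 (202934_at), the inducible isoform and a common HIF target, went the other way. Its values were 10.43, 10.55 and 10.45 in empty vector cells in ethanol and 9.76, 9.90 and 9.66 in TPA. The EVI1-labelled arrays read 10.35, 10.26 and 10.34 in ethanol and 9.26, 8.81 and 9.66 in TPA. Ethanol and TPA arrays did not overlap in either population, and the EVI1-labelled TPA arrays were spread most (SD 0.43, n = 3). HK2 fell by 0.70 in empty vector cells (SE 0.16, adjusted p = 0.00189) and by 1.07 in EVI1-labelled cells (SE 0.16, adjusted p = 5.44e-05). Its other 2 probe sets fell by 1.13 and 1.35 in empty vector cells and by 0.85 and 0.87 in EVI1-labelled cells.

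The bifunctional PFKFB enzymes set the level of the sugar phosphate that activates phosphofructokinase. PFKFB4 (228499_at) stood at 6.62, 6.75 and 6.58 in empty vector cells in ethanol and 8.12, 8.48 and 8.08 in TPA. In the EVI1-labelled population it stood at 6.73, 6.77 and 6.79 in ethanol and 8.56, 8.30 and 8.49 in TPA. The treatments were separated by more than 1 log2 unit on all arrays. PFKFB4 rose by 1.58 (SE 0.11, 2.98-fold, adjusted p = 2.5e-08) and 1.69 (SE 0.11, 3.22-fold, adjusted p = 1.57e-08). Its dimmer second probe set, with a mean of 5.41, differed by 0.17 and 0.24 and was not called.

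PFKFB3 (202464_s_at), the isoform with the strongest kinase activity, had values of 8.97, 8.61 and 8.83 in empty vector cells in ethanol and 8.66, 8.27 and 8.51 in TPA. Those of the EVI1-labelled cells were 8.80, 8.69 and 8.70 in ethanol and 8.20, 7.89 and 7.99 in TPA. The empty vector arrays overlapped between treatments and the EVI1-labelled arrays did not. PFKFB3 fell by 0.32 (SE 0.12, adjusted p = 0.0422) and by 0.70 (SE 0.12, adjusted p = 0.000217). The call in empty vector cells was lost when any of 7 of the 12 arrays was left out (the 3 EVI1-labelled arrays in ethanol, replicates 1 and 3 of the empty vector cells in ethanol and replicates 2 and 3 in TPA), with an adjusted p of up to 0.188 without replicate 2 of the empty vector cells in TPA. PFKFB2 differed by -0.02 and -0.09, neither called.

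The enzymes from glucose phosphate to lactate fell or stayed without a call, apart from a few isoforms. GPI, which converts glucose phosphate to fructose phosphate, fell by 0.58 and 0.45 in empty vector and EVI1-labelled cells. Of the phosphofructokinases, which catalyse the committed step, the muscle isoform PFKM rose by 0.86 and 0.50, whereas the liver isoform PFKL differed by -0.23 (adjusted p = 0.0677) and -0.17 and the platelet isoform PFKP by 0.06 and -0.09, none of these called. The second PFKL probe set fell by 0.56 in empty vector cells (adjusted p = 0.000506 over probe sets), and the mean over both sets differed by -0.395 there (adjusted p = 0.00179), a called fall. PFKL was also called in empty vector cells without replicate 1 of the EVI1-labelled cells in TPA (adjusted p = 0.049) or replicate 2 of the empty vector cells in TPA (adjusted p = 0.0335). The PFKM call in EVI1-labelled cells was lost without replicate 1 of those cells in ethanol (adjusted p = 0.0712).

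ALDOC, a minor isoform of aldolase, the enzyme that splits the sugar, fell by 0.84 and 0.27, the latter call (adjusted p = 0.0465) being lost without any of 8 arrays (all 6 EVI1-labelled arrays and replicate 2 of the empty vector cells in either treatment). ALDOA, the main aldolase, differed by -0.02 and -0.03 and was not called. TPI1, which interconverts the products of that split, fell by 0.58 and 0.42. GAPDH and PGK1, which carry out the oxidation and the ATP-yielding step that follow, differed by -0.01 and 0.01 in empty vector cells and by -0.02 and 0.05 in EVI1-labelled cells, with no call. Of the 6 PGK1 probe sets, 1 that was not used was called lower in empty vector cells. In EVI1-labelled cells its 5 other sets were not called. PGAM1, the mutase, fell by 0.37 and 0.57, and the enolase ENO1 fell by 0.43 and 0.49. The ENO1 fall in empty vector cells was not called without replicate 2 in TPA (adjusted p = 0.0547). The 3 other ENO1 probe sets were not called in empty vector cells. In EVI1-labelled cells 1 of them was called lower and 2 were not called. ENO2, the neuronal enolase, had group means of 4.13 to 4.17, below the background level in all 4 groups.

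At the end of the pathway PKM, which makes pyruvate, rose by 0.24 in empty vector cells (adjusted p = 0.0148), a call lost without replicate 3 in ethanol (adjusted p = 0.0607), and differed by 0.12 in EVI1-labelled cells (adjusted p = 0.229). Both lactate dehydrogenase subunits fell. LDHA fell by 0.51 and 0.50 and LDHB by 0.66 and 0.51, each with a SE of 0.07 to 0.08. The group means of ALDOA, GAPDH, PGK1, ENO1, LDHA and LDHB lay between 12.7 and 13.6 in a table whose highest value was 14.6. Saturation of such bright probe sets was not assessed.

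TPA also changed most of the 14 hypoxia response genes: 7 rose and 4 fell in empty vector cells, and 6 rose and 4 fell in EVI1-labelled cells, with the background shares given above. By 1 or more, 3 rose and 2 fell in empty vector cells and 2 rose and 2 fell in EVI1-labelled cells. The median difference was 0.33 and 0.28. ADM, EPAS1, DDIT4, HIF1A, BNIP3L and P4HA1 rose and EGLN1, VEGFA, MXI1 and BNIP3 fell in both populations. ANKRD37, an ankyrin repeat gene induced by hypoxia, rose by 0.99 in empty vector cells and differed by 0.38 in EVI1-labelled cells (adjusted p = 0.0666), where it was called without replicate 1 in TPA (adjusted p = 0.0454) or replicate 2 in ethanol (adjusted p = 0.0484). Its mean in empty vector cells in ethanol, 5.0, was below the background level.

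HIF binds DNA at a short core motif, and 5 genes that moved are shown with the stretch just upstream of their start: 4 that hold a match there, picked with the matches known, and HK3, which rose more than DDIT4 and holds none. RefSeq promoter windows (assembly GRCh38.p14, 250 bases before to 50 bases from the start) were matched by symbol for 35 of the 40 listed genes. SLC2A3, PFKFB2, VEGFA, NDRG1 and BNIP3L are named only. Each line holds the 130 bases before the start, 5′ to 3′ on the gene's strand, with the core ACGTG or GCGTG, searched on both strands with overlapping matches counted, in capitals. ADM is at chr11:10304943-10305072 (plus strand), DDIT4 at chr10:72273794-72273923 (plus), EPAS1 at chr2:46297277-46297406 (plus), EGLN1 at chr1:231422288-231422417 (minus) and HK3 at chr5:176899347-176899476 (minus).
ADM: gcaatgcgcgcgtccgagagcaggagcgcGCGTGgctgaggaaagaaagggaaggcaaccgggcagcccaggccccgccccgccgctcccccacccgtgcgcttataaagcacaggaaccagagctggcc
DDIT4: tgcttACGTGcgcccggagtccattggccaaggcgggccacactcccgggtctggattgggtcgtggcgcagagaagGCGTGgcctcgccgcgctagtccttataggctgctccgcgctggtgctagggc
EPAS1: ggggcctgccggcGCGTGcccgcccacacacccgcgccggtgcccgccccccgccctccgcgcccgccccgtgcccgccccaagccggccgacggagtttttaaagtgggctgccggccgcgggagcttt
EGLN1: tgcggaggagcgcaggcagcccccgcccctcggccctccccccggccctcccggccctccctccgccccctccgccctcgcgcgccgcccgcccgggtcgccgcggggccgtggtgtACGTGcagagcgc
HK3: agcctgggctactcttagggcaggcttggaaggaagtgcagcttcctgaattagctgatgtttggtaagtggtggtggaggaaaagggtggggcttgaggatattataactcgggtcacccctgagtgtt
Within these stretches ADM, EPAS1 and EGLN1 have 1 match each, DDIT4 has 2 and HK3 has 0. DDIT4 has 4 in its whole window, HK3 has 0, and PFKFB4, which is not shown, has 1 that lies upstream of the stretch. ADM, DDIT4, EPAS1 and HK3 rose with TPA and EGLN1 fell. These genes were picked with the matches known, so no link between a match and the direction of change can be read from them. Over the whole windows, 43 of 64 windows of the 35 genes held the motif (67.2%), 31 of 48 for glycolysis genes (64.6%) and 12 of 16 for hypoxia genes (75.0%). Of 21490 windows of genes tested on the arrays 55.0% held it, and 48.4% of all 35116 windows. These shares describe letters in the windows and carry no test.

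RNA of the HIF alpha subunits EPAS1 and HIF1A rose and that of a hydroxylase that marks them fell. EPAS1 (200878_at), an alpha subunit prominent in endothelium and macrophages, had values of 7.95, 7.56 and 7.72 in empty vector cells in ethanol and 10.05, 9.91 and 9.90 in TPA. In EVI1-labelled cells it read 7.83, 7.72 and 7.95 in ethanol and 9.65, 9.13 and 9.77 in TPA. All TPA arrays were above all ethanol arrays. EPAS1 rose by 2.21 (SE 0.15, 4.63-fold, adjusted p = 1.83e-08) and 1.68 (SE 0.15, 3.21-fold, adjusted p = 3.6e-07). Its other 2 probe sets had means of 3.56 and 3.23 and were not called. HIF1A, the widely expressed alpha subunit, rose by 0.92 and 0.73.

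EGLN1 (223046_at), the main prolyl hydroxylase acting on HIF alpha subunits, had values of 9.20, 8.97 and 9.03 in empty vector cells in ethanol and 7.74, 7.41 and 7.25 in TPA. EVI1-labelled cells had 8.40, 8.31 and 8.42 in ethanol and 7.30, 7.01 and 6.98 in TPA. No TPA array reached an ethanol array in either population. EGLN1 fell by 1.60 (SE 0.12, 3.03-fold, adjusted p = 8.52e-08) and by 1.28 (SE 0.12, 2.43-fold, adjusted p = 9.9e-07). Of its other 3 probe sets, 2 fell in each population, by 1.28 and 0.76 in empty vector cells, and the third, with a mean of 3.61, was not called. EGLN3, a hydroxylase that is itself a HIF target, differed by 0.11 and 0.03 and was not called.

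Among HIF targets the secreted factors moved apart. ADM (202912_at) encodes adrenomedullin, a vasodilator peptide. Its values were 5.08, 4.97 and 5.13 in empty vector cells in ethanol and 7.59, 7.72 and 7.88 in TPA. For the EVI1-labelled cells they were 5.23, 4.57 and 4.92 in ethanol and 6.88, 6.27 and 7.25 in TPA. The ethanol means, 5.06 and 4.91, were below the background level, and all TPA arrays were above it. ADM rose by 2.67 (SE 0.21, 6.36-fold, adjusted p = 8.3e-08) and 1.89 (SE 0.21, 3.72-fold, adjusted p = 3.21e-06), folds that are compressed by the dim ethanol signal.

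VEGFA (210512_s_at), the angiogenic growth factor, fell. It had 10.05, 9.97 and 10.15 in empty vector cells in ethanol and 8.75, 9.47 and 8.85 in TPA. The EVI1-labelled values were 10.11, 10.14 and 9.94 in ethanol and 8.83, 9.04 and 9.28 in TPA. Treatments did not overlap and populations did. The fall was 1.03 (SE 0.16, adjusted p = 0.000101) and 1.01 (SE 0.16, adjusted p = 0.000134), and the other 3 probe sets had differences between -0.42 and -0.69, of which 5 of 6 were called.

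DDIT4 (202887_s_at), an inhibitor of mTORC1 signalling, had values of 9.14, 9.23 and 9.76 in empty vector cells in ethanol and 10.70, 10.59 and 10.59 in TPA. It stood at 9.54, 9.82 and 9.87 in EVI1-labelled cells in ethanol and 10.56, 10.41 and 10.15 in TPA. The treatments did not overlap. DDIT4 rose by 1.25 (SE 0.15, 2.38-fold, adjusted p = 8.77e-06) and 0.63 (SE 0.15, 1.55-fold, adjusted p = 0.00385).

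The mitophagy receptors BNIP3 and BNIP3L, which tag mitochondria for removal, moved oppositely. BNIP3L (221478_at) had 9.21, 8.92 and 9.21 in empty vector cells in ethanol and 9.58, 9.56 and 9.55 in TPA. In EVI1-labelled cells its values were 9.55, 9.42 and 9.66 in ethanol and 10.39, 10.36 and 10.26 in TPA. TPA arrays lay above ethanol arrays in each population, and the EVI1-labelled TPA arrays were the highest of all. BNIP3L rose by 0.45 (SE 0.10, adjusted p = 0.0012) and 0.79 (SE 0.10, adjusted p = 7.74e-06), while BNIP3 fell by 0.64 and 0.66. MXI1, which antagonises MYC, fell by 0.84 and 0.96. P4HA1, a subunit of the collagen prolyl hydroxylase, rose by 0.42 and 0.32, and its call in EVI1-labelled cells was lost when its 2 probe sets were averaged (0.12, adjusted p = 0.415), without replicate 2 in ethanol (adjusted p = 0.0548) or without replicate 2 in TPA (adjusted p = 0.0666). PDK1, a kinase that shuts pyruvate dehydrogenase, differed by 0.23 (adjusted p = 0.0805) and 0.11, and NDRG1, a stress and differentiation gene, by -0.04 and 0.23, none of them called. PDK1 was called in empty vector cells without their replicate 1 in TPA (adjusted p = 0.0353). Of its 3 probe sets, 1 that was not used was called higher in empty vector cells. In EVI1-labelled cells 1 that was not used was called lower, so its probe sets disagree in direction there.

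**Figure D2:**
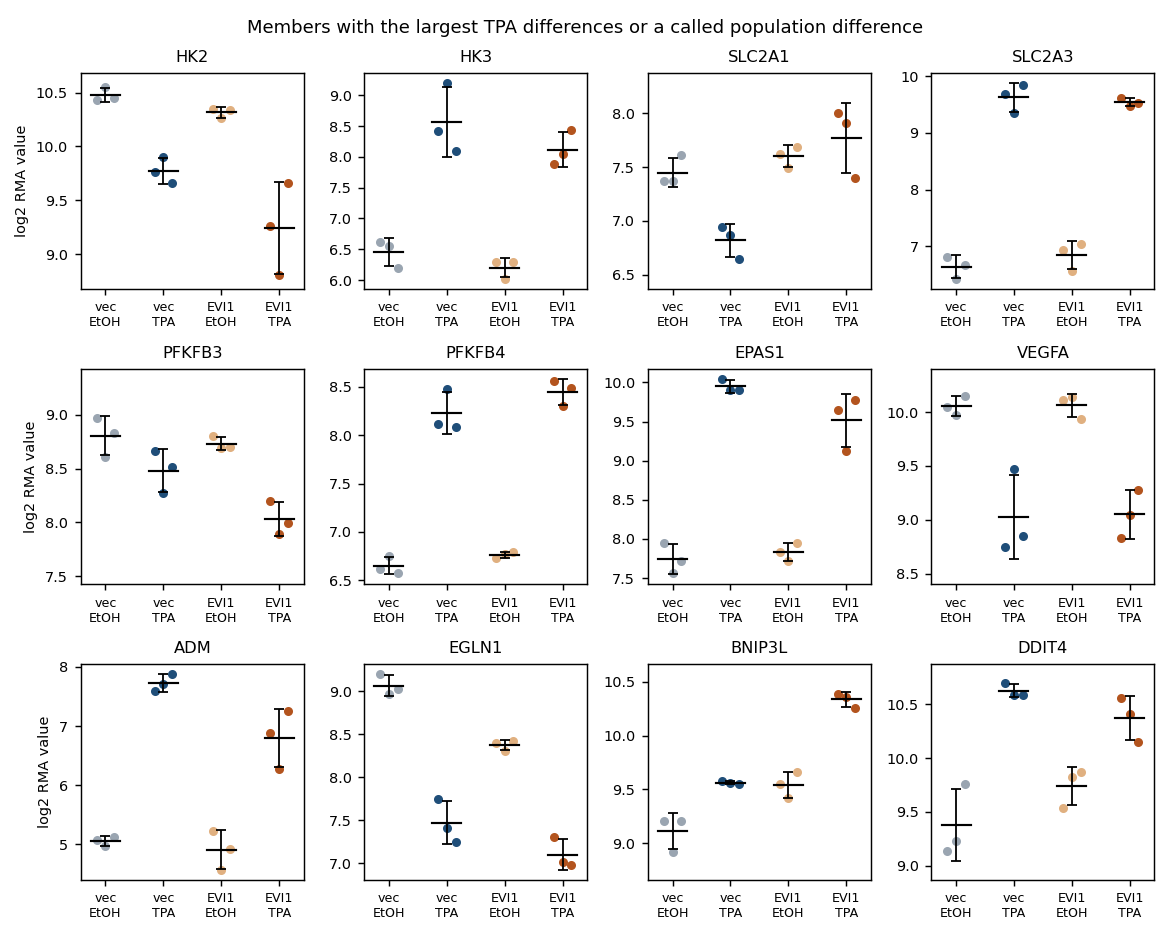
Log2 RMA values of the 12 genes described array by array, with empty vector (vec) and EVI1-labelled (EVI1) cells in ethanol (EtOH) and TPA on each horizontal axis. Points are the 3 arrays of a group and lines are the mean ± SD, with axes that do not start at 0, and the TPA arrays of SLC2A3, HK3, PFKFB4, EPAS1 and ADM lie above every ethanol array while those of EGLN1, VEGFA and HK2 lie below.

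Macrophage markers moved with the same treatment. Of 6 measured (CD14, ITGAX, ITGAM, CD163, MRC1 and FCGR1A), TPA raised 5 with the empty vector and 3 with the EVI1 label. Their log2 values summed to 24.3 to 25.6 per array in ethanol and 39.0 to 41.2 in TPA in empty vector cells, and to 24.2 to 25.0 and 33.2 to 35.6 in EVI1-labelled cells. Of 17 markers of T, B, erythroid, megakaryocyte, fibroblast and epithelial cells, HBB and COL1A2 were called higher in empty vector cells in TPA, by 0.48 and 0.34, and none was called in the other comparisons. In those cells the ethanol and TPA means of COL1A2 (4.05 and 4.39) lay under the background level. So did those of FCGR1A (3.01 and 3.41), which is among the 5 raised macrophage markers. The part of the change in cell state in the differences above was not tested.

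The comparison of populations in ethanol called few of these genes. None of the 24 glycolysis genes was called and 2 of the 14 hypoxia genes were, beside 3.27% of all genes (1.32% higher and 1.95% lower). By limma 2 of the 24 glycolysis genes, ALDOC and SLC2A6, had an unadjusted p under 0.05, as did 6 of the 14 hypoxia genes (NDRG1, EGLN1, ANKRD37, BNIP3L, MXI1 and DDIT4) and 12.7% of all genes. SLC2A6 differed by -0.42 (adjusted p = 0.129) and was called when replicate 3 of the EVI1-labelled cells in TPA was left out (adjusted p = 0.0222). The called genes were EGLN1, lower by 0.69 in EVI1-labelled cells (SE 0.12, 1.61-fold, adjusted p = 0.00634), and BNIP3L, higher by 0.43 (SE 0.10, 1.35-fold, adjusted p = 0.0228). For both genes the 3 arrays of one population did not overlap the 3 of the other. Another EGLN1 probe set was also called lower, by 0.59 (adjusted p = 0.0189 over probe sets), and the other BNIP3L set was called higher by 0.50 (adjusted p = 0.00492 over probe sets). The EGLN1 call held under all alternatives run. The BNIP3L call was lost without replicate 1 (adjusted p = 0.0855) or 3 (adjusted p = 0.106) of the EVI1-labelled cells in ethanol, or replicate 2 of the empty vector cells in ethanol (adjusted p = 0.0973), which left 1 hypoxia gene called. NDRG1 differed by -0.51 (SE 0.15, adjusted p = 0.0953) and DDIT4 by 0.37 (SE 0.15, adjusted p = 0.313). DDIT4 was called without replicate 3 of the empty vector cells in ethanol (adjusted p = 0.0453).

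In TPA the populations differed in 5 of the 38 genes, beside 11.2% of all genes (5.9% higher and 5.3% lower). SLC2A1 and BNIP3L were higher in EVI1-labelled cells, and ADM, HK2 and PFKFB3 were lower. SLC2A1, the basal glucose transporter, was higher by 0.95 (SE 0.14, 1.93-fold, adjusted p = 0.000619), with the EVI1-labelled arrays at 7.40 to 8.0 and the empty vector arrays at 6.65 to 6.94. BNIP3L was higher by 0.77 (SE 0.10, 1.71-fold, adjusted p = 0.000132), and its other probe set by 0.59. ADM was lower by 0.93 (SE 0.21, 1.91-fold, adjusted p = 0.00955), with no overlap of arrays. These 3 calls held under all alternatives run.

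The other two calls were less settled. PFKFB3 was lower by 0.45 (SE 0.12, adjusted p = 0.0253) without overlap, and the call was lost when any of 4 arrays was left out: replicates 1 and 3 of the empty vector cells in TPA and replicates 2 and 3 of the EVI1-labelled cells in TPA, with an adjusted p of up to 0.109. HK2 was lower by 0.53 (SE 0.16, adjusted p = 0.0446), its groups overlapped at 9.66, and the call was lost without any array but replicate 3 of the EVI1-labelled cells in TPA, 11 arrays in all, and when the replicate number was taken as a block (adjusted p = 0.0546). Its other 2 probe sets differed by 0.17 and 0.33 in the opposite direction, neither called, and the mean over its probe sets differed by -0.01 (adjusted p = 0.983). Without replicate 1 or 3 of the empty vector cells, or replicate 2 of the EVI1-labelled cells, all in TPA, 1 of the 24 glycolysis genes was called instead of 3.

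Same-numbered arrays of the TPA-treated populations deviated together, so the fit with the replicate number as a block bears on this comparison. With the block 4 glycolysis and 4 hypoxia genes were called instead of 3 and 2. EGLN1 (difference -0.37, adjusted p = 0.0229), EPAS1 (difference -0.44, adjusted p = 0.0288) and PGAM1 (difference -0.26, adjusted p = 0.0302) were then lower in EVI1-labelled cells and ALDOC (difference 0.32, adjusted p = 0.0484) higher. Without the block the adjusted p of EGLN1 was 0.0778 and that of EPAS1 was 0.0802. Calls also came without single arrays: EGLN1 without replicate 1 of the EVI1-labelled cells (0.0365) or replicate 3 of the empty vector cells (0.0335), EPAS1 (0.0246) and PGAM1 (0.031) without replicate 3 of the EVI1-labelled cells, P4HA1 without replicate 1 of the empty vector cells (0.0133) and PFKFB4 without their replicate 2 (0.0406), all in TPA and given as adjusted p. ALDOC was called without replicate 1 (0.046) or 3 (0.0364) of the empty vector cells in ethanol. The median difference was -0.06 for glycolysis genes and -0.15 for hypoxia genes, and that of all genes was 0.01. In this comparison 5 of the 6 macrophage markers were lower in EVI1-labelled cells. FCGR1A, which is among these, had means of 3.41 (empty vector) and 2.94 (EVI1-labelled), both under the background level. The part of these lower markers in the differences of the genes above was not tested.

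**Figure D3:**
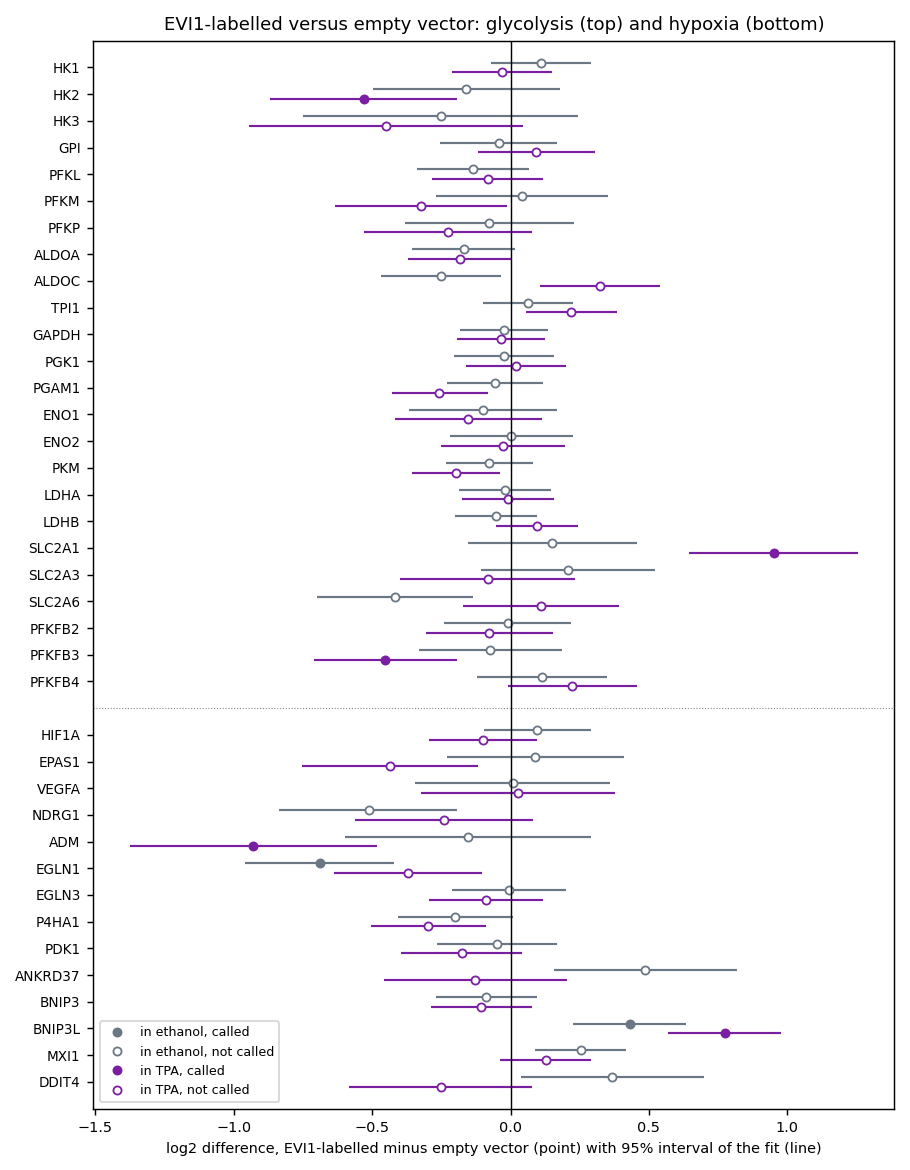
Log2 difference of EVI1-labelled minus empty vector cells for the 38 measured genes, glycolysis above and hypoxia response below, in ethanol (grey) and in TPA (purple). Points are fitted differences, lines are 95% intervals and filled points are called. Most intervals cross 0, while SLC2A1, ADM and BNIP3L in TPA and EGLN1 in ethanol stand clear of it. The intervals are not adjusted over genes, and those of some further genes, called or not, also lie off 0.

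Whether the response to TPA itself differed between the populations was tested as an interaction. None of the 38 genes was called, beside 1.98% of all genes, and by limma 4 of the 24 glycolysis genes and 5 of the 14 hypoxia genes had an unadjusted p under 0.05, beside 12.5% of all genes. ALDOC fell less in EVI1-labelled cells (difference in response 0.57, SE 0.14, adjusted p = 0.0606), a difference that was called without replicate 3 of the empty vector cells in ethanol (adjusted p = 0.0335) and when genes below the median mean were left out. SLC2A1 had the widest gap, a fall of 0.63 against a difference of 0.17 (difference in response 0.80, SE 0.20, 95% interval 0.37 to 1.23, adjusted p = 0.0625). It was called in 5 of 19 alternatives, including that without replicate 3 of the EVI1-labelled cells in TPA, where the difference in response was 0.98 (adjusted p = 0.00352). SLC2A6 was called without the same array (adjusted p = 0.0158; 0.214 with it). ADM, whose ethanol means are at background in both populations, rose by 0.78 less (SE 0.29, 95% interval -1.41 to -0.15, adjusted p = 0.257), DDIT4 by 0.62 less (SE 0.22, adjusted p = 0.213) and EPAS1 by 0.53 less (SE 0.21, adjusted p = 0.29) in EVI1-labelled cells, none of them called. For the genes with the strongest rise or fall shared by both populations the intervals of the difference in response were wide as well, from -0.74 to 0.16 for SLC2A3 and from -0.06 to 0.70 for EGLN1.

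Genes of neighbouring pathways, taken from 6 further lists, were counted in the same fit, and their shares are read against the 43.2% (empty vector) and 40.0% (EVI1-labelled) of all genes called with TPA. These lists were chosen with earlier results of these data known, so their shares, here and below, are descriptions with no test of a list. Of 20 glycolytic isozymes, side reactions and transporters, 3 rose and 4 fell in each population (35.0% called), a share under that of all genes. GALM, the mutarotase that feeds sugars into the pathway, rose by 3.45 and 3.64, and TIGAR, a phosphatase that opposes PFKFB kinases, by 1.72 and 1.91. SLC2A5, a fructose transporter, fell (log2 differences -3.55 and -2.81). Without replicate 1 of the empty vector cells in ethanol 4 genes instead of 7 were called in that population. TXNIP, which restrains glucose uptake, fell by 0.45 and 0.51, and the first of these calls was lost without replicate 1 of the empty vector cells in ethanol (adjusted p = 0.0882) or replicate 3 in TPA. Between populations 10.0% of the 20 were called in ethanol and 5.0% in TPA, beside 3.27% and 11.2% of all genes. TXNIP was higher in EVI1-labelled cells by 0.63 in ethanol (adjusted p = 0.0243) and 0.57 in TPA (adjusted p = 0.0173). ADPGK was lower in ethanol (-0.48, adjusted p = 0.0272). Each ethanol call was lost without any of 5 arrays and the TPA call without any of 4.

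The link from pyruvate to mitochondria changed in both directions. Of 12 genes of pyruvate dehydrogenase, its kinases and phosphatases and the pyruvate carrier, 5 rose and 5 fell in empty vector cells (83.3% called, beside 43.2% of all genes) and 6 rose and 3 fell in EVI1-labelled cells (75.0%, beside 40.0%). PDHA1, the catalytic subunit, fell by 1.24 and 0.91, DLAT by 0.87 and 1.06 and the carrier subunit MPC1 by 1.11 and 1.06. PDP1, the phosphatase that switches the complex on, rose by 1.06 and 0.58, and PC, which carboxylates pyruvate, by 1.13 and 0.94. In TPA the kinase PDK3 was higher by 1.02 in EVI1-labelled cells (adjusted p = 0.00019), with arrays at 9.49 to 10.17 against 8.71 to 8.86. DLD, the shared dehydrogenase subunit, was higher in that population by 0.53 in ethanol and 0.78 in TPA, and so was PDHA1 in TPA, by 0.40. DLAT was lower there (-0.46, adjusted p = 0.00158), as was PDHX, a structural subunit (-0.35, adjusted p = 0.00679), so that 3 of the 12 were higher and 2 lower in TPA, beside 11.2% of all genes called. Without replicate 3 of the EVI1-labelled cells in TPA 8 were called instead of 5, among them MPC1 (adjusted p = 0.00119, 0.0571 with it) and PC (0.036, 0.096 with it). Without that array PDK3 was also called for the difference in response (adjusted p = 0.00596, 0.0697 with it).

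Of 7 pentose phosphate genes, 1 rose and 3 fell in empty vector cells and 3 rose and 3 fell in EVI1-labelled cells (57.1% and 85.7% called, beside 43.2% and 40.0% of all genes). RPIA fell by 1.87 and 1.85, RPE by 1.05 and 0.86 and TKT by 0.85 and 0.61, all of them enzymes of the non-oxidative branch. Of 9 glycogen genes, 3 rose and 1 fell in empty vector cells and 5 rose and 1 fell in EVI1-labelled cells, a count of 6 that was 3 without replicate 3 of those cells in ethanol. The shares called were 44.4% and 66.7%, beside 43.2% and 40.0% of all genes, so that in empty vector cells the list lay at the background. GYS1, glycogen synthase, fell by 1.04 and 0.99, and PPP1R3B, a subunit that directs a phosphatase to glycogen, rose by 1.19 and 0.65. In TPA the glycogen phosphorylases PYGL and PYGB were lower in EVI1-labelled cells by 0.69 and 0.59 and PPP1R3B by 0.73. Of the 9 genes, 4 were called lower and 1 higher in that comparison (55.6%, beside 11.2% of all genes). PYGB was also called between populations in ethanol without replicate 3 of the EVI1-labelled cells in TPA (adjusted p = 0.00984, 0.0684 with it).

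Among 14 other components of the HIF pathway, 3 rose and 2 fell in empty vector cells and 5 rose and 1 fell in EVI1-labelled cells. These shares, 35.7% and 42.9%, are near the 43.2% and 40.0% of all genes. ARNT2, a partner of HIF alpha subunits, had means of 4.37 and 4.23 in ethanol, below the background level, and of 9.60 and 8.45 in TPA, a rise of 5.22 and 4.22. CITED2, which competes with HIF for its coactivators, rose by 0.96 and 1.72. HIF1AN, the asparagine hydroxylase that blocks HIF activity, rose by 0.58 and 0.57, and SIAH2, a ligase that degrades prolyl hydroxylases, fell by 0.87 in each.

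Of 34 other genes known to be induced by hypoxia, 9 rose and 9 fell in empty vector cells and 9 rose and 8 fell in EVI1-labelled cells (52.9% and 50.0% called, beside 43.2% and 40.0% of all genes). HMOX1, heme oxygenase, rose by 4.23 and 4.15, and BHLHE40, a repressor of transcription, by 2.67 and 2.05. CXCR4, a chemokine receptor, fell (log2 differences -2.72 and -3.29), as did AK4, a mitochondrial adenylate kinase (-1.96 and -1.21), and HILPDA, a lipid droplet protein (-1.92 and -1.61). Between populations in TPA, 5 of the 34 were higher and 2 lower in EVI1-labelled cells (20.6% called, beside 11.2% of all genes). AK4 was higher by 1.06 (adjusted p = 0.000115) and PPFIA4 by 1.36 (adjusted p = 0.00667). PPFIA4 rose with TPA by 2.04 in EVI1-labelled cells and differed by 0.66 in empty vector cells, not called. Its EVI1-labelled arrays in TPA read 7.97, 8.10 and 6.66. Its difference in response was called only without replicate 3 of that group (adjusted p = 0.000465, 0.119 with it).

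**Figure D4:**
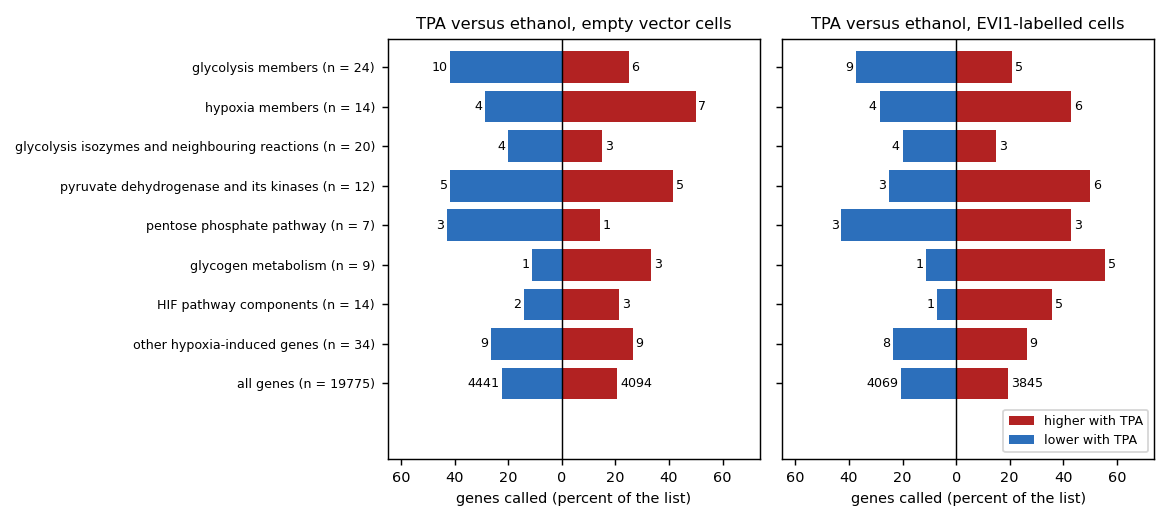
Percent of each list called higher (red, to the right) or lower (blue, to the left) with TPA in either population, with the number of genes called at each bar and all 19775 genes in the lowest bar. Each list holds genes called in both directions, and the lists are described by these counts with no test of a list.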

How the data were processed

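Per the submitters' processing notes, the authors deposited log2 values that Expression Console 1.3 (Affymetrix) computed by RMA from 250 ng of total RNA labelled from the 3′ end, per the labels' protocols. RMA forces arrays to a common distribution, so a shift shared by most genes is removed. Array medians were 5.07 to 5.11. Sequencing depth does not apply, and the number of arrays limits the precision. Of 54675 probe sets, 41097 were annotated to 1 gene, 1801 to several and 11777 to none. Each of 19775 genes took its single-gene probe set with the highest mean over 12 arrays, with no filter on low values.

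limma 3.58.1 (R 4.3.3) fitted the 4 group means jointly, with moderated variances (8 residual degrees of freedom, 5.22 from the prior). Tests were two-sided, adjusted over all genes by Benjamini-Hochberg and called at 0.05. Over all genes the SE had a median of 0.105 between groups and 0.149 for the difference in response. The fit was tested on simulated data. Genes were described array by array where called with a log2 difference of at least 1 in a TPA comparison or called between populations. From each further list up to 3 genes with the largest called rise and fall with TPA, and up to 3 called between populations or for the difference in response, were eligible, and the text names part of them. Apart from the markers FCGR1A and COL1A2, a gene whose higher group mean was under the background level was not named for its change. Single values lost or gained without 1 array were added after their values were seen. The genes, lists and the 5.07 level were chosen with earlier results of these data known.

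Replicate numbers recur across groups. Deviations of same-numbered arrays from their group means correlated at 0.415, 0.130 and 0.151 between the TPA-treated populations, all above 0.1; no other pair of groups had all 3 above it. The numbers were taken as pairs there only, although other pairs of groups matched by number too. Between ethanol and TPA the same-numbered values were 0.145, 0.091 and 0.208 (EVI1-labelled) and 0.157, 0.105 and 0.079 (empty vector). Between populations in ethanol they were 0.176, 0.143 and 0.075. Each was above that of every other-numbered array. The pairing rests on the data, since the labels name no shared day, and the block was fitted over all 12 arrays. Alternatives were averaging probe sets, leaving out genes below the median mean (6.12), quantile normalizing again, median centring, the replicate block, an intensity trend with a robust prior, fitting only the 2 groups compared, array weights, and leaving out each array.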

Additional observations from a re-analysis of the deposited data

Results flagged for a closer look

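The response to TPA differed between the populations, by the interaction test of limma, for 5 of the 96 genes of the further lists (5.21%, beside 1.98% of all genes) and for none of the 38 glycolysis and hypoxia genes. The lists were chosen with earlier results of these data known, so the share of 5.21% is a description with no test of the lists. ARNT2, the partner of HIF alpha subunits, rose by 1.01 less in EVI1-labelled cells (difference in response -1.01, SE 0.19, adjusted p = 0.0167; TPA arrays at 8.10 to 8.63 against 9.51 to 9.69), and the call was lost without replicate 3 of the empty vector cells in ethanol (adjusted p = 0.0503). Both ethanol means, 4.37 and 4.23, were below the background level, so neither rise is measured in full and the difference of the rises carries that limit, while the TPA arrays of the populations differed by -1.15 (adjusted p = 9.92e-05). CITED2, which competes for HIF coactivators, rose by 0.76 more (SE 0.14, adjusted p = 0.0158), a call lost without replicate 1 or 3 of the empty vector cells in ethanol (adjusted p of up to 0.0515). Of the 14 HIF pathway genes these 2 were called, and without replicate 3 of the empty vector cells in ethanol none was.

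TMEM158, a Ras-induced membrane protein, rose by 2.14 (empty vector) and 0.97 (EVI1-labelled) (difference in response -1.16, SE 0.21, adjusted p = 0.0118), and was called under all 19 alternatives. TMEM45A, a membrane protein induced by hypoxia, differed by -0.27 in empty vector cells (arrays at 5.19, 5.29 and 5.40 in ethanol and 5.15, 5.03 and 4.90 in TPA) and rose by 1.23 in EVI1-labelled cells (4.70, 4.56 and 5.06, then 5.84, 6.43 and 5.74). The difference in response was 1.50 (SE 0.24, adjusted p = 0.0051) and was called under all 18 alternatives that could give a value, with 2 of the 4 group means, 4.77 in EVI1-labelled cells in ethanol and 5.03 in empty vector cells in TPA, below the background level, so its size is not measured exactly. BHLHE40 rose by 0.61 less in EVI1-labelled cells (difference in response -0.61, SE 0.13, adjusted p = 0.0243). It was called in 12 of 19 alternatives, lost without any of 6 arrays (all ethanol arrays but replicate 2 of the empty vector cells, and replicate 2 of the EVI1-labelled cells in TPA, adjusted p of up to 0.0726), and with the mean over its probe sets the difference was -0.40 (adjusted p = 0.285).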

How the results depend on the processing

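Over all alternatives no called difference of the 38 genes changed sign. Calls kept under every alternative numbered 23 of 27 (TPA, empty vector), 21 of 24 (TPA, EVI1-labelled), 1 of 2 (populations, ethanol) and 3 of 5 (populations, TPA). Of the glycogen genes, PPP1R3D rose in EVI1-labelled cells (0.29, adjusted p = 0.0497), with a difference of -0.015, not called, when probe sets were averaged, and the call was lost without any of 8 arrays (adjusted p of up to 0.185). With each array left out in turn, glycolysis genes called ranged from 14 to 17 for TPA in empty vector cells, 12 to 15 in EVI1-labelled cells, 0 to 1 between populations in ethanol, 1 to 3 in TPA and 0 to 2 for the difference in response; hypoxia genes from 11 to 12, 9 to 11, 1 to 3, 2 to 3 and 0 to 0; and all genes from 7860 to 8869, 7213 to 7928, 369 to 787, 1532 to 2616 and 188 to 681. Array weights gave 1 glycolysis, 4 hypoxia and 1206 of all genes between populations in ethanol (0, 2 and 647 without), and 1 glycolysis gene and 617 of all genes for the difference in response (0 and 392 without). Fitting only the 2 groups compared gave 1 glycolysis gene in ethanol, and in TPA 1 glycolysis gene (3 otherwise) and 1241 of all genes (2214 otherwise). Leaving out genes below the median mean, which leaves 20 glycolysis and 12 hypoxia genes, gave 7 and 4 called between populations in TPA and 2 glycolysis genes for the difference in response. Averaging probe sets gave 6 glycolysis genes in TPA, the intensity trend 5 in TPA and 1 for the difference in response, and quantile normalizing again 1 for the difference in response. The replicate block gave 4 hypoxia genes between populations in ethanol, 4 in TPA and 1 for the difference in response, and in the pair of groups taken as paired it changed the calls named above and no other call of these genes. Elsewhere the numbers were not taken as pairs. With the block ANKRD37 and NDRG1 were gained between populations in ethanol and ANKRD37 for the difference in response. With TPA against ethanol, PDK1 and PFKL were gained in empty vector cells and ANKRD37 in EVI1-labelled cells. The causes of these moves were not tested beyond the fewer genes or arrays that some alternatives use. Dim genes such as ENO2, ADM in ethanol and ANKRD37 are limited by background.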
